A study of Mus musculus with 6 samples.

Results

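The genes of MHC class I antigen presentation and of the interferon response were examined in cerebellar endothelium of mice lacking Ccm3, a gene now named Pdcd10 whose loss causes cerebral cavernous malformations. The members were taken by symbol: all H2 genes, B2m, Tap1, Tap2, Tapbp and its relative, the IRF and STAT families, the Ifi, Ifit and Ifitm genes, the receptor chains for type I and type II interferon, the Gbp, Oas and Isg genes, Bst2 and Usp18. A member also needed a normalised value of at least 10 in at least 3 of 6 libraries, which 73 of 74 matching genes met, out of 14437 genes listed and 14076 that met the same minimum. H2-Q6 was the matching gene below it.

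Ccm3 knock-out mice (3 mice, C57BL6, postnatal day 9) were compared with wild-type mice of the same strain and age (3 mice). Endothelial cells had been isolated from the cerebella with CD45 and CD31 beads, and total RNA was sequenced in 1 library per mouse as the labels number them. How Ccm3 was deleted, by which driver and in which cells, was not stated in the labels. Reads per library ranged from 11075769 to 20566507 in knock-out libraries and from 16281778 to 21142333 in wild-type libraries. All values below are reads divided by the authors' size factors, called normalised reads, and changes are knock-out over wild-type.

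MHC class I molecules are built from a heavy chain and the light chain beta-2 microglobulin (B2m), and are loaded in the endoplasmic reticulum with peptides that the Tap1-Tap2 transporter brings in and tapasin (Tapbp) helps to fit. Interferons bind receptor chains (Ifnar1 and Ifnar2 for type I, Ifngr1 and Ifngr2 for type II) that activate STAT factors, which with IRF factors switch on antiviral effectors such as the Ifit, Oas and Gbp genes and also raise MHC class I. In healthy brain, MHC class I is low on most cells and is found mainly on endothelium. NF-kappaB, the main factor of inflammatory signalling, also acts on MHC class I genes and on Irf1.

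The promoters of 4 members are shown because they hold matches to motifs of these pathways: Irf1 and H2-T23, which rose, B2m, the common light chain, and Ifit1, a classical interferon target that was not called. Each is the 250 bases before the RefSeq start site (GRCm38.p6), printed from the 5′ end of the gene's strand. Capitals mark matches to the core of the interferon-stimulated response element (ISRE: GAAA, any 2 bases, GAAA). They also mark the core of the gamma-activated site bound by STAT dimers (GAS: TTC, any 3 bases, GAA). For the kappaB site they mark a single narrow form (GGG, any 2 bases, TTTCC). All were searched on both strands. Other forms of the kappaB site were not searched, so a window without a match may still hold such a site. Irf1 lies at chr11:53769764-53770013 (plus strand), H2-T23 at chr17:36032702-36032951 (minus strand), B2m at chr2:122147437-122147686 (plus strand) and Ifit1 at chr19:34640639-34640888 (plus strand).
Irf1: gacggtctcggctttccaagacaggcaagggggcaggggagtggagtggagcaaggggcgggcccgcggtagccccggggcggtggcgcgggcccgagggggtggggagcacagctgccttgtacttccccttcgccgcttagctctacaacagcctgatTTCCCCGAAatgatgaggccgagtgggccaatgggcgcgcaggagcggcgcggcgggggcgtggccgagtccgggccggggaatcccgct
H2-T23: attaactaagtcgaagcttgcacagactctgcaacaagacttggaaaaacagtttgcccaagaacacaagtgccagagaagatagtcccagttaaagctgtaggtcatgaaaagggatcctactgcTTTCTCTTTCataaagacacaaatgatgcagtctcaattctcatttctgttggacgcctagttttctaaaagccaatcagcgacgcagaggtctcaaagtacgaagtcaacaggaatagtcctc
B2m: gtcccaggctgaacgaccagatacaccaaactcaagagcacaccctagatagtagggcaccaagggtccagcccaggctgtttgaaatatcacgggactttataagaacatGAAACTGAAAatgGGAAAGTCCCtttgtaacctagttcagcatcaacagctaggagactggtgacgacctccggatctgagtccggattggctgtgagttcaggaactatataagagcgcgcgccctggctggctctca
Ifit1: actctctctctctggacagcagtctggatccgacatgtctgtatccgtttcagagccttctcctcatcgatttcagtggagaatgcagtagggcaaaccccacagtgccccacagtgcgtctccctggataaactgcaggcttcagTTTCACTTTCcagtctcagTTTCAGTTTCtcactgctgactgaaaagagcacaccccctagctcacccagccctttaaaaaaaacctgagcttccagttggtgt

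In these windows Irf1 holds a GAS match that begins 90 bases before the start site. H2-T23 holds an ISRE match at 124 bases, printed as its reverse complement. B2m holds an ISRE match at 139 bases and, a few bases on, a kappaB match in reverse complement at 126 bases. Ifit1 holds a pair of reverse-complement ISRE matches at 104 and 85 bases. GENCODE begins the H2-T23 and Ifit1 genes inside these windows, and B2m at the last base of its window, so part of those sequences is transcribed there. The H2-T23 match lies inside the gene as GENCODE places it, and the B2m and Ifit1 matches lie before theirs. Matches are descriptions of letters and say nothing of binding.

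RefSeq windows were found for 59 of the 73 members. An ISRE match stood in 23 of those 59 members (39.0%), against 3.46% of 27025 genes with a window. A GAS match stood in 12 of them (20.3%), against 8.13% of all genes, and a kappaB match of the searched form in 5 (8.47%), against 1.65%. Matches of different motifs can overlap, as in Bst2. Of the 23 members with an ISRE match, 14 had a higher mean log2 value in the knock-out, and their median log2 change was 0.16, beside 0.05 for the members with a window and no match. Among effector genes 18 of 29 had an ISRE match, and among MHC class I heavy chains and loading genes 3 of 9.

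Irf1, H2-T23 and H2-D1 rose in the knock-out and no member fell. These 3 of 73 members (4.11%) stand beside 6.24% of all genes that changed in either direction, 3.60% that rose and 2.64% that fell, so the share of members called was near the background. Their median log2 change was 0.07, beside -0.01 over all genes. The knock-out and wild-type libraries did not overlap for 22 members (30.1%, background 25.5%), of which 15 were higher in the knock-out (20.5%, background 12.8%) and 7 lower (9.59%, background 12.8%). DESeq2 on the recovered reads called 6 members, all higher (8.96% of the members it tested, background 9.95%), adding B2m, H2-K1 and Ifitm2. With the replicate number as a block, Ifitm2 was called beside the same 3 members (adjusted p = 0.0273, background 5.46%).

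**Figure D1:**
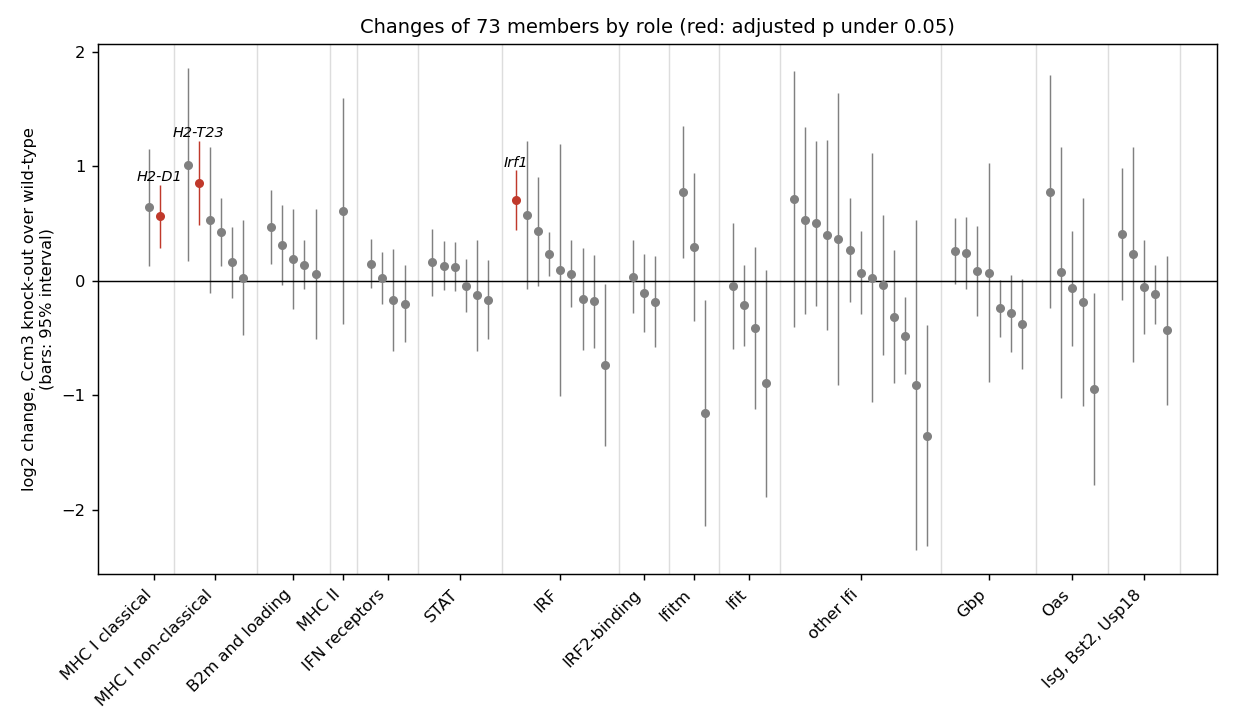
Log2 change of each of 73 members, knock-out over wild-type, grouped by role, with 95% intervals from limma. The 3 members that rose are red, all 13 MHC class I heavy chain and loading genes lie above 0, and the effectors, from Ifitm rightwards, lie on both sides of it, with the Ifit genes all below.

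Wild-type 1 stood apart from the other libraries in its Y-linked genes. The summed level of 4 Y-linked genes was 4017, 813 and 1880 normalised reads in knock-out 1, 2 and 3, and 1.49, 3501 and 1816 in wild-type 1, 2 and 3. Sex is not in the labels, and its part in the results was not tested beyond a fit that took this level as a covariate, in which Irf1 was the 1 member called. Pdcd10 itself had 230.1, 154 and 309 normalised reads in knock-out libraries, against 529, 522 and 689 in wild-type libraries (fold 0.39, 0.26 to 0.57, adjusted p = 0.0162, limma). It was not called without wild-type 1, 2 or 3 (adjusted p = 0.0511, 0.0605 and 0.0619), where its fold stayed well below 1. The summed level of 10 endothelial markers was 126190 to 153760 in knock-out libraries and 142360 to 160700 in wild-type libraries. That of 12 pericyte and smooth muscle markers was 40793 to 53648 in knock-out libraries and 39543 to 78286 in wild-type libraries. The isolates thus carried the labelled cell type, with much RNA of pericytes and smooth muscle beside it.

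MHC class I is high on leukocytes, and microglia can also carry it, so their markers were read beside these genes. Of 20 microglia and macrophage markers 12 were kept, and the summed level of the 16 that were listed was 1304 to 1523 in knock-out libraries, against 1448 to 1517 in wild-type libraries, with overlap. Lyve1, which also marks lymphatic endothelium, was the marker that rose among the 12, and none fell. Of 22 markers of other leukocytes 2 were kept (Cd79a and Lcn2), and neither was called. Their sum was 29.5 to 46.2 in knock-out libraries and 19.0 to 28.2 in wild-type libraries, without overlap. The B cell marker Cd79a was higher without overlap (13.6 to 18.3, against 11.1 to 12.6), near the minimum value, and Lcn2 overlapped. Markers of T cells (Cd3e) and a further marker of B cells (Ms4a1) were among the 20 not analysed here. Erythrocyte markers were lower (5401 to 6578, against 9945 to 19777), with 4 of 6 fallen, and astrocyte markers were lower (3101 to 3585, against 5396 to 6404), with Gja1 the 1 of 8 that fell. Of 3 platelet markers kept, Tubb1 rose (sum 111 to 320.1, against 82.4 to 92.8). No marker of neurons, oligodendrocytes, fibroblasts or pericytes was called. The part of these cells in the results was not tested, except for microglia and macrophages, whose level as a covariate left Irf1, H2-T23 and H2-D1 called and added B2m (adjusted p = 0.0430, limma). In such bulk samples fewer cells of a type and less RNA per cell cannot be told apart.

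All 8 MHC class I heavy chains had higher mean log2 values in the knock-out, and 2 of them, H2-T23 and H2-D1, rose. H2-T23 encodes Qa-1, a non-classical molecule that presents leader peptides of other class I molecules to receptors of natural killer and T cells (ENSMUSG00000067212, chromosome 17, 36029773 to 36032855 of GRCm38). It had 441, 389.7 and 305 normalised reads in knock-out 1, 2 and 3, against 195, 203 and 222 in wild-type 1, 2 and 3. Every knock-out library lay above every wild-type library, and knock-out 3 was nearest to them. The rise was 1.81-fold (95% interval 1.40 to 2.33, log2 change 0.86 ± 0.16 SE, adjusted p = 0.0190, limma).

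H2-D1, a classical heavy chain that presents peptides to CD8 T cells (ENSMUSG00000073411, chromosome 17, 35262730 to 35267499), had 2104, 2531 and 1858 normalised reads in knock-out libraries, against 1433, 1499.8 and 1426.5 in wild-type libraries. The wild-type libraries were close together, the knock-out libraries spread more widely, and the groups did not overlap. The rise was 1.48-fold (1.22 to 1.79, log2 change 0.56 ± 0.12 SE, adjusted p = 0.0323, limma). The other classical heavy chain, H2-K1, had 793, 1412 and 863 in knock-out libraries, against 698, 695 and 524 in wild-type libraries. Knock-out 2 was far above the other libraries, the groups were still apart, and the fold of 1.56 (1.09 to 2.22) was not called (adjusted p = 0.161, limma) but was with DESeq2 (adjusted p = 0.0319).

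Among the other non-classical chains, H2-Q4 had 346, 448 and 383 normalised reads in knock-out libraries, against 298, 284 and 289.8 in wild-type libraries. Its fold was 1.34 (adjusted p = 0.111, limma). Its groups did not overlap, and neither did those of H2-K2, a transcribed pseudogene per GENCODE, with 28.5 ± 6.33 in the knock-out and 13.9 ± 5.35 in wild-type (SD, n = 3 each). H2-T24 (106 ± 28.3 and 73.2 ± 20.3), H2-T22 (212 ± 15.0 and 189.6 ± 14.5) and H2-M3, which presents formylated bacterial peptides (58.1 ± 10.1 and 56.5 ± 2.72), overlapped between knock-out and wild-type. The median log2 change of the 8 heavy chains was 0.55. These heavy chains resemble each other closely in sequence, so reads could have been split among them, and a value for 1 of them is uncertain to that degree.

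The light chain and the loading genes were all 5 higher in mean log2 value, but none was called, 1 had an unadjusted p under 0.05 (19.0% of all genes did), and DESeq2 called B2m. B2m (chromosome 2, 122147686 to 122153083) had 3372, 3474 and 2510.0 normalised reads in knock-out libraries, against 2469, 2178 and 2056 in wild-type libraries. The lowest knock-out library and the highest wild-type library nearly touched, and the fold was 1.39 (1.11 to 1.73, adjusted p = 0.105, limma). Without knock-out 3 it was called (adjusted p = 0.0156). Tap2 (fold 1.24), Tap1 (1.14), Tapbp (1.10, with groups apart) and Tapbpl, an editor of class I peptides, had adjusted p between 0.321 and 0.938.

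Per kilobase of exon, which allows levels of different genes to be compared, B2m was the highest member with 3626 ± 616 normalised reads per kb in the knock-out and 2598 ± 247 in wild-type (SD, n = 3 each). H2-D1 followed in the knock-out with 839 ± 132, against 563 ± 15.7 in wild-type, and Ifnar1 with 751 ± 25.9, against 678 ± 54.9. H2-K1 reached 348 ± 115, against 217 ± 33.95, and H2-T23 131 ± 23.8, against 71.6 ± 4.78. H2-D1 and Ifnar1 lay within their spread of each other in the knock-out, whereas Ifnar1 was the higher of the pair in wild-type.

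**Figure D2:**
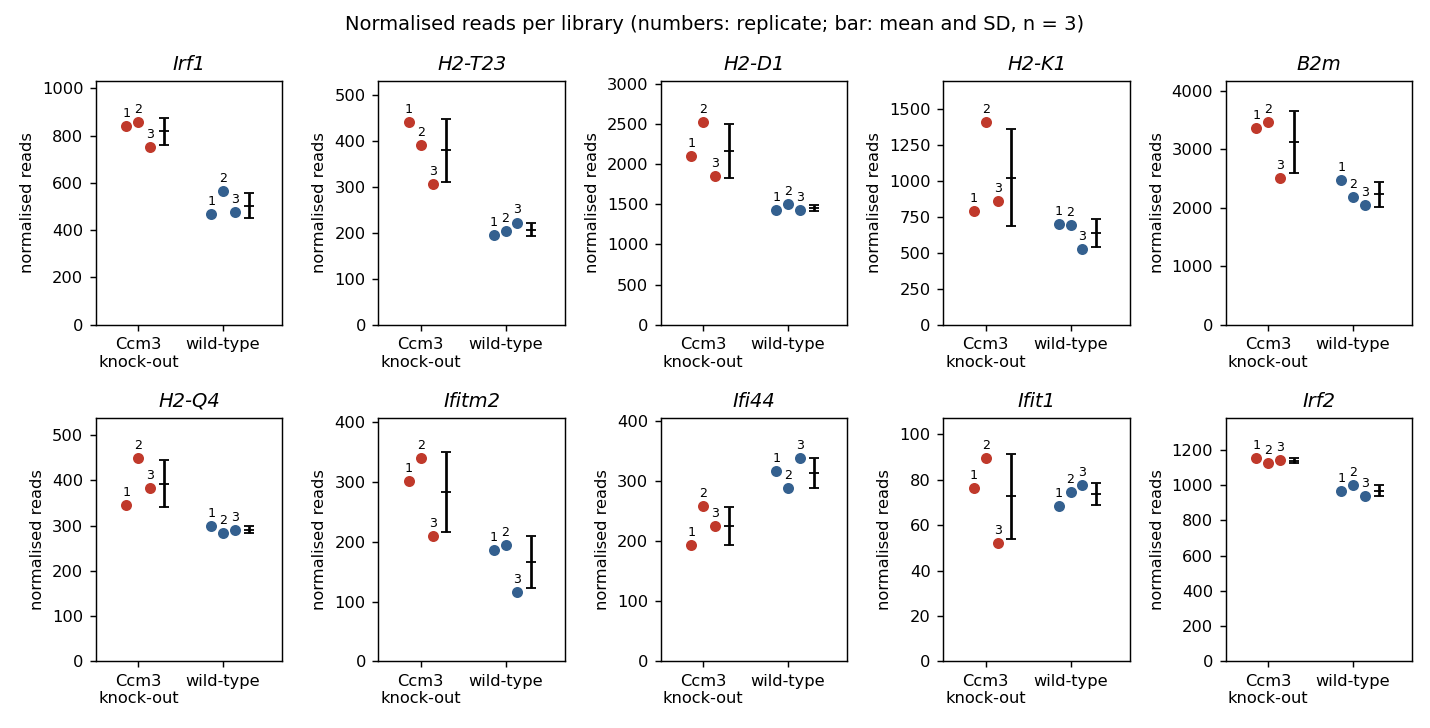
Normalised reads of 10 members in each library, knock-out left of wild-type, with the mean and SD of 3 libraries. Irf1, H2-T23, H2-D1, H2-K1, B2m, H2-Q4, Ifitm2 and Irf2 have knock-out libraries above all wild-type libraries, those of Ifi44 lie below, and Ifit1 overlaps.

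All 13 heavy chain and loading genes had a higher mean log2 value in the knock-out (over all genes 6902 of 14076 did), with a median of 0.42 and 7 of 13 with groups apart and higher, against 12.8% of all genes. The direction of all 13 was the same under TMM and quantile scaling. When the Y-linked level was fitted and in the fits without wild-type 1 or knock-out 1 it was 12 of 13, with H2-M3 lower, and without knock-out 2, knock-out 3 or wild-type 3 it was 12 of 13, with Tapbpl lower. By library, the median of the 13 genes against the wild-type mean of log2(value + 1) was 0.26, 0.62 and 0.18 in knock-out 1, 2 and 3. It was -0.06, 0.02 and -0.03 in wild-type 1, 2 and 3. Knock-out 2 held the highest value for 9 of the 13 genes and for 35 of all 73 members (47.9%), against 18.1% of all genes, and it was the lowest library for no member.

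**Figure D3:**
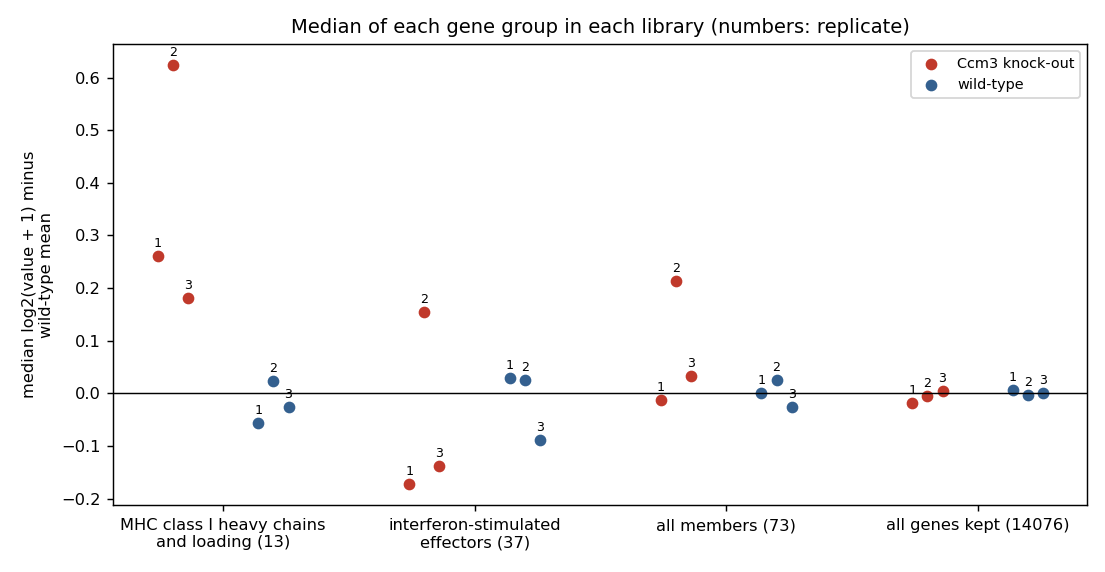
Median over each gene group of log2(value + 1) minus the wild-type mean, 1 point per library, knock-out left of wild-type. The MHC class I group is higher in all 3 knock-out libraries, most in knock-out 2, while the effectors are higher in knock-out 2 but lower in knock-out 1 and 3.

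On chromosome 17 the interval from H2-K2 to H2-M3 (33974659 to 37274484) held 93 genes that met the minimum, 11 of them members. All 11 were higher in mean log2 value, 6 with groups apart (12.8% of all genes were apart and higher), and their median log2 change was 0.53. Of the 82 other genes of the interval 5 rose and none fell, 48 had a higher mean log2 value and 12 had groups apart and higher, with a median of 0.05. Over all genes 3.60% rose and 12.8% were apart and higher. The 5 that rose were Psmb8, Clic1, Tnf, Ppp1r18os and Ppp1r18. Psmb8 is a subunit of the immunoproteasome, which cuts peptides for class I.

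**Figure D4:**
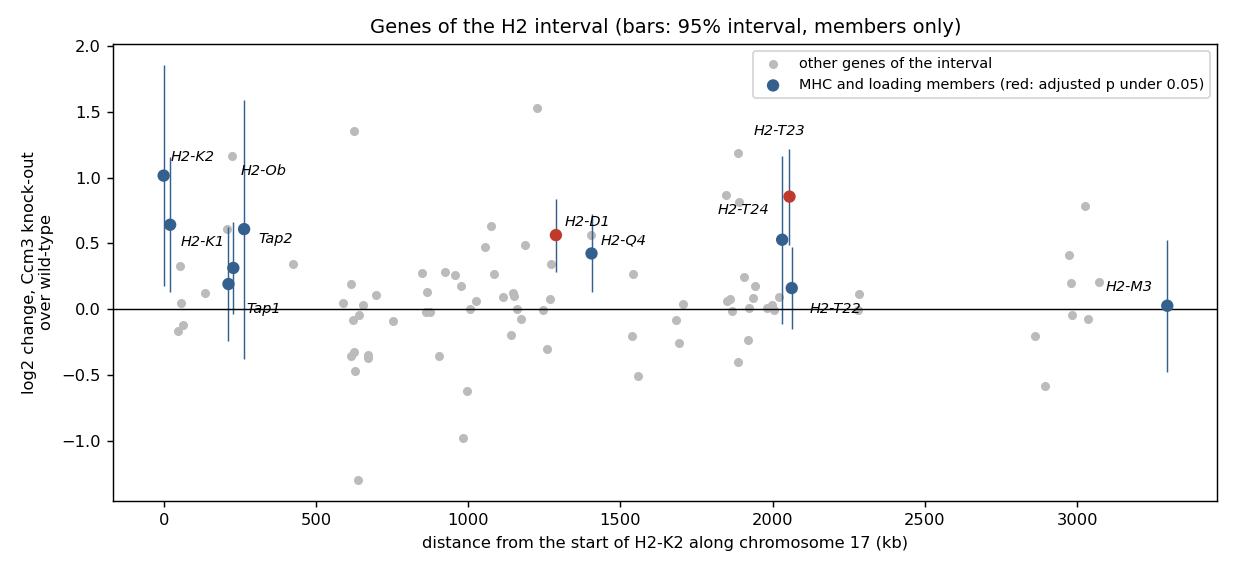
Log2 change of 93 genes against distance from the start of H2-K2 along chromosome 17, in kb. The 11 members (large points, 95% intervals, red where adjusted p is under 0.05) all lie above 0, and the 82 other genes (grey) lie on both sides.

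The single detected class II chain was H2-Ob, part of a modulator of class II peptide loading in B cells and dendritic cells. It had 11.6 ± 2.21 normalised reads in the knock-out and 7.53 ± 2.83 in wild-type (adjusted p = 0.521, limma). It lies near the minimum value.

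Of 9 IRF factors, Irf1 rose, none fell and 8 were not called. Irf1, a factor induced by interferon gamma and by NF-kappaB that activates class I and loading genes (ENSMUSG00000018899, chromosome 11, 53770014 to 53778374), had 842, 859.6 and 754 normalised reads in knock-out 1, 2 and 3. It had 470.0, 564 and 477 in wild-type 1, 2 and 3, so the groups were far apart relative to their spread. The rise was 1.63-fold (1.36 to 1.95, log2 change 0.70 ± 0.11 SE, adjusted p = 0.0108, limma), the smallest p among the members. Irf2, which competes with Irf1 for the same sites, had 1150.4, 1122 and 1139.8, against 965, 998 and 939. Its knock-out libraries were nearly equal and all above wild-type, with a fold of 1.18 (adjusted p = 0.173, limma).

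Irf5 (102 ± 21.3 and 74.2 ± 1.93) and the myeloid factor Irf8 (38.6 ± 7.85 and 25.4 ± 4.13) had higher knock-out libraries without overlap (normalised reads in knock-out and wild-type). Neither was called (adjusted p = 0.318 and 0.323, limma). Irf3, which relays viral sensing, had a fold of 0.88, Irf7, the amplifier of type I interferon, 0.89, and Irf9, the partner of Stat2, 1.04, all with overlap. Exons of Irf7 overlap those of Phrf1 and exons of Irf5 those of Tnpo3, both on the opposite strand and more abundant, so these values are uncertain where the counting ignored strand. The IRF2-binding corepressors Irf2bp1, Irf2bp2 and Irf2bpl overlapped between groups, with log2 changes between -0.18 and 0.04.

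None of the 4 receptor chains or the 6 STAT factors was called or had an unadjusted p under 0.05 with limma, and DESeq2 and edgeR called none of them. Ifnar1 had 4625, 4321.5 and 4429.7 normalised reads in knock-out libraries, against 3737, 3971 and 4382 in wild-type libraries, where only wild-type 3 reached the knock-out range. Its fold was 1.11 (0.96 to 1.28). Ifnar2 (0.87), Ifngr1 (1.02) and Ifngr2 (0.89) overlapped. Stat3, which relays gp130 cytokines, had 2156 ± 162 in the knock-out and 1979 ± 92.6 in wild-type (fold 1.09, 0.94 to 1.26). Stat2 had a fold of 1.12 and Stat6, which relays interleukin 4, 1.10.

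The 37 interferon-stimulated effectors lay on both sides of no change. None was called with limma, 5 had an unadjusted p under 0.05 (19.0% of all genes did), edgeR called none and DESeq2 called Ifitm2 (it called 9.95% of the genes it tested). In mean log2 value 18 were higher and 19 lower, the median log2 change was -0.04, 3 had groups apart and higher and 6 apart and lower (12.8% of all genes in each direction). By library their median against the wild-type mean was -0.17, 0.15 and -0.14 in knock-out 1, 2 and 3, and 0.03, 0.02 and -0.09 in wild-type 1, 2 and 3, with overlap. Whether this differs from the class I genes was not tested. Members of the Ifit, Oas, Gbp and Ifi200 families resemble each other in sequence, so reads may have been split among them and their single values are uncertain to that degree.

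The Ifitm genes, membrane proteins that block viral entry, had changes of both signs, none of them called with limma, although they neighbour each other on chromosome 7. Ifitm2 had 301, 339 and 209 normalised reads in knock-out libraries, against 186, 195 and 116 in wild-type libraries. The groups were apart, both genotypes were lowest in replicate 3, and the fold was 1.71 (1.15 to 2.55, adjusted p = 0.135, limma). With the replicate block it was called (adjusted p = 0.0273), as it was by DESeq2 (adjusted p = 0.0368). Ifitm1 had 27.3, 37.2 and 13.6 in knock-out libraries, against 77.2, 60.7 and 35.2 in wild-type libraries (fold 0.45, adjusted p = 0.192, limma), and here too replicate 3 was lowest in each genotype. Ifitm3 had 309 ± 97.2 and 252 ± 74.0 (fold 1.23) with overlap.

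The 4 Ifit genes, whose products bind foreign RNA, all had lower mean log2 values in the knock-out, none was called, and none had an unadjusted p under 0.05. Ifit1, whose promoter carries the ISRE pair shown above, had 76.4, 89.4 and 52.2 normalised reads in knock-out libraries, against 68.3, 74.8 and 77.6 in wild-type libraries. Its knock-out libraries lay on both sides of wild-type (fold 0.97). Ifit2, Ifit3 and Ifit3b had folds of 0.86, 0.75 and 0.54, and Ifit3b had groups apart at 7.83 ± 1.19 and 16.5 ± 8.27. Ifit1 was higher without knock-out 3 and with the microglia level in the fit.

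Of 13 Ifi genes 8 had a higher mean log2 value in the knock-out. Ifi44, an antiviral target of type I interferon, had 194, 258 and 225 in knock-out libraries, against 316, 288 and 338 in wild-type libraries. All 3 knock-out libraries were lower, with a fold of 0.72 (0.57 to 0.90, adjusted p = 0.109, limma). Ifi208 of the Ifi200 family was likewise lower without overlap, at 10.9 ± 5.69 and 27.4 ± 3.74 (fold 0.39, adjusted p = 0.117, limma). The thiol reductase Ifi30 had 56.8 ± 20.3 and 39.0 ± 9.60 with overlap.

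Guanylate-binding proteins (Gbp), GTPases that act on membranes of pathogens, numbered 7, and none was called or had an unadjusted p under 0.05. Gbp3, the highest of them per kilobase, had 687, 1011 and 939 normalised reads in knock-out libraries, against 1008, 1059 and 1106 in wild-type libraries (fold 0.82). Gbp5 and Gbp7 were lower without overlap (folds 0.77 and 0.85, adjusted p = 0.281 and 0.274, limma), and Gbp2 was higher without overlap (359 ± 53.9 and 301 ± 7.88). Gbp9 had 939.9 ± 138 and 781 ± 63.4, and shares exon sequence with Gbp4 in the annotation.

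Of 5 Oas genes, sensors of double-stranded RNA, Oasl2 was the highest per kilobase, with 306, 429 and 229 in knock-out libraries and 347, 344 and 289.8 in wild-type libraries (fold 0.95). Oas1a had 13.2, 38.5 and 15.9 in knock-out libraries, against 12.6, 10.7 and 10.8 in wild-type libraries, a difference carried by knock-out 2. Oas1b, a polymorphic pseudogene per GENCODE, was lower without overlap (8.68 ± 1.63 and 17.8 ± 4.34). Isg15, the ubiquitin-like modifier that interferon induces strongly, had 18.9, 43.7 and 31.8 in knock-out libraries, against 28.2, 34.7 and 16.3 in wild-type libraries. Usp18, which removes Isg15 and restrains receptor signalling, had 131 ± 24.9 and 135 ± 8.07, and tetherin (Bst2) 179.6 ± 56.7 and 131.6 ± 20.7. The nuclease Isg20 had a fold of 0.74, and Isg20l2, which despite its symbol is known from ribosome production, 0.92.

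Genes of these pathways outside the member rule were read from 4 lists, chosen with earlier results of these data known. Of 18 further antigen-processing genes Psmb8 rose, none fell and 17 were not called (6.24% of all genes were called). Psmb8 had 79.2, 99.9 and 68.1 normalised reads in knock-out libraries, against 39.4, 44.1 and 26.2 in wild-type libraries (fold 2.24, 1.45 to 3.47, adjusted p = 0.0439, limma). It was not called with quantile scaling (adjusted p = 0.0541), when the microglia level (0.0812) or the Y-linked level (0.102) was fitted, or without knock-out 1 or 2 or wild-type 1, 2 or 3 (0.0871 to 0.138). Of 23 kinases, sensors and inhibitors of interferon signalling none was called, 7 had an unadjusted p under 0.05 (19.0% of all genes did), and DESeq2 called 3 (it called 9.95% of the genes it tested). Pias1, an inhibitor of STAT signalling, and Ikbke, a kinase that activates Irf3 and Irf7, had folds of 1.40 and 2.17 with groups apart (adjusted p = 0.0794 and 0.0810, limma).

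Of 50 other interferon-stimulated genes 3 rose (3.60% of all genes did), 1 fell (2.64% of all genes did) and 46 were not called. The share called was near the background of 6.24%, and the median log2 change was 0.13. Groups were apart and higher for 13 of the 50 and apart and lower for 3 (12.8% of all genes in each direction). An unadjusted p under 0.05 with limma was found for 13 of them (19.0% of all genes). Sp110, a nuclear body protein, had 169, 187 and 127 normalised reads in knock-out libraries, against 56.4, 67.4 and 68.6 in wild-type libraries (fold 2.47, 1.78 to 3.41, adjusted p = 0.00939, limma). The ubiquitin ligase Rnf213 rose 1.55-fold and the ADP-ribosyltransferase Parp14 1.48-fold (adjusted p = 0.0230 and 0.0287, limma). Nampt, better known as the enzyme of NAD salvage, fell (fold 0.34, adjusted p = 0.00190, limma). Rnf213 and Parp14 were not called when the Y-linked level was fitted (adjusted p = 0.0774 and 0.0980). Rnf213 was not called without knock-out 2 (adjusted p = 0.0687), wild-type 1 (0.0975) or wild-type 2 (0.119), and Parp14 was called in none of the fits without 1 library except that without knock-out 3 (0.0514 to 0.134 in the others).

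Of 14 genes of gp130 and STAT3 signalling 2 rose and 3 fell, against 3.60% and 2.64% of all genes. As the list was chosen with earlier results of these data known, this count describes the listed genes and does not test the pathway. Il4ra is on the list although interleukin 4 is relayed by Stat6. The receptor chains Lifr and Osmr and the interleukin 4 receptor Il4ra fell (folds 0.43, 0.55 and 0.59, adjusted p = 0.00140, 0.0279 and 0.00688, limma). Icam1, an adhesion molecule and target of Stat3 and NF-kappaB, rose 2.03-fold (adjusted p = 0.00302, limma), and Il6ra rose 1.66-fold (adjusted p = 0.0490, limma). When fitted with the microglia or the Y-linked level, Osmr was not called (adjusted p = 0.0725 and 0.0506). Neither was Il6ra (0.0614 and 0.116), nor was it with a pseudocount of 10, no minimum value or quantile scaling (0.0505 to 0.0509) or the replicate block (0.0836). Osmr was not called without knock-out 2 or 3 or wild-type 1, 2 or 3 (adjusted p 0.0597 to 0.106), and Il6ra was called, among the fits without 1 library, only without knock-out 3 (adjusted p = 0.0480).

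Each member's call depended on single libraries. Irf1 was not called without wild-type 1 (adjusted p = 0.0557, log2 change 0.66). H2-T23 was not called without knock-out 2 (0.0722) or wild-type 1, 2 or 3 (0.0796, 0.0932 and 0.0505), or when the Y-linked level was fitted (0.0681). H2-D1 was called without knock-out 3 and in none of the other 5 such fits (0.0598 to 0.121), nor with the Y-linked level (0.0945). The log2 changes of H2-T23 and H2-D1 in all these fits were positive, from 0.74 to 1.00 and from 0.44 to 0.67.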

How the data were processed

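Per the submitters' processing notes, Trim Galore, STAR 2.5.3a and DESeq2 were used with the GRCm38 build. The counter, its strand setting, the annotation and any gene filter were not stated. The values deposited by the authors are a signal, whole gene counts scaled by a size factor. All values (100%) were whole multiples of 1 step within 0.01 of a read, so whole reads were recovered. The median gene had 182 to 309 reads.

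Genes reaching 10 in 3 or more libraries were taken to log2(value + 1) and fitted with limma 3.58.1 under R 4.3.3 (genotype only, mean-variance trend, two-sided, Benjamini-Hochberg over all genes, limit 0.05), which understates changes of low genes. Intervals are 95%. edgeR 4.0.16 and DESeq2 1.42.0 on recovered reads were alternatives. The fits were tested on simulated data. The members, lists and rule for named genes were chosen with earlier results of these data known. The rule took called members, the most abundant member and the 2 smallest p per role, fixed pathway genes, and up to 4 called genes (or the 2 smallest p) per list. Another 13 genes were added after their values were seen: Ifit1, Ifit3, Irf5, Irf8, H2-K2, H2-T24, H2-T22, H2-M3, Tapbpl, Gbp2, Gbp9, Ifi30 and Il6ra. Single further values were taken from the member tables.

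Same-numbered libraries had correlated deviations from their group means (0.101, 0.110 and 0.192), each above 0.1, so the numbers were taken as pairs in the blocked alternative. Libraries of different number correlated as much (knock-out 2 with wild-type 1 at 0.295, knock-out 1 with wild-type 3 at 0.109, knock-out 3 with wild-type 2 at 0.191), and the labels state no shared litter. Replicate libraries differed far beyond sampling noise (chi-square per degree of freedom 13.9 to 57.4). Results for some items are not reported here. Positions are from GENCODE M21 (GRCm38), promoters from RefSeq.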

Additional observations from a re-analysis of the deposited data

How the results depend on the processing

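Across 16 alternatives, 974 of 1060 pairs of a named gene and an alternative kept both call and direction, and 26 changed sign, none of them for a gene called in the main analysis. Without 1 library in turn, the genes changed numbered 283 to 1032, the members changed 0 to 4, the antigen-processing genes 0 to 1, the interferon signalling genes 0 to 3, the other interferon-stimulated genes 2 to 10, and the gp130 and STAT3 genes 3 to 6. The members' median log2 change was 0.01 to 0.12. DESeq2 called 1373 genes (main analysis 879), 6 members, 3 signalling genes and 8 other interferon-stimulated genes. When the Y-linked level was fitted the counts were 435 genes, 1 member, 0 antigen-processing, 2 other interferon-stimulated and 3 gp130 and STAT3 genes. With the microglia level they were 0 antigen-processing, 7 other interferon-stimulated and 3 gp130 and STAT3 genes, and with quantile scaling 0 antigen-processing genes. The replicate block (769 genes, 4 members) lost the call of Il6ra (adjusted p = 0.0836) and added that of Ifitm2, and it changed no other call of a named gene. The cause of these shifts was not tested. Uncalled log2 changes that turned sign were Ifngr1 with quantile scaling (-0.0085). With the microglia level they were Ifngr2 (0.039), Oasl2 (0.16), Usp18 (0.070) and Ifit1 (0.17), and with the Y-linked level Irf9 (-0.00071), Usp18 (0.0017) and H2-M3 (-0.015). Without 1 library the log2 changes ran from -0.092 to 0.16 for H2-M3, -0.21 to 0.17 for Ifit1, -0.022 to 0.073 for Ifngr1, -0.31 to 0.077 for Ifngr2, -0.27 to 0.019 for Irf2bp2, -0.29 to 0.013 for Irf3, -0.032 to 0.12 for Irf9, -0.070 to 0.55 for Isg15, -0.30 to 0.15 for Oasl2, -0.12 to 0.30 for Tapbpl and -0.21 to 0.023 for Usp18. With 3 libraries a group, the 13 members with a mean under 20 normalised reads carry wide intervals, and a change that was not called may still exist.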
